A study of Mus musculus with 66 samples.

Results

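The genes of oxidative phosphorylation were examined in the cerebellum of C57BL/6 mice of both sexes, in mice of different ages and in adults on 2 diets. Members were the genes with a probe of a single symbol that starts with Atp5, Nduf or Uqcr, or with Cox and a digit from 4 to 8, or that is one of the Sdh genes, Cyc1 or Cycs. The rule used names alone and no measured value. It found 44 genes on 52 probes, of 4209 single-symbol genes on 4875 probes. By complex, 17 genes belonged to complex I, 2 to complex II, 3 to complex III, 7 to complex IV and 14 to complex V, and the last, Ndufaf3, entered by its prefix alone, being an assembly factor of complex I and no subunit. Cyc1, Cycs, Sdhb and Sdhd were not among the members.

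Transcript levels were measured in 66 mice, each on its own nylon filter of spotted cDNA probes. The adults were 9 calorie-restricted (CR) and 10 ad libitum (AL) mice of 6 months, 10 CR and 10 AL mice of 16 months, and 8 CR and 9 AL mice of 24 months. CR mice were fed regular chow until 13 weeks of age and a reduced, fortified ration afterwards, in steps to 60% of the AL ration. The remaining mice were AL juveniles, 5 of 17 to 21 days and 5 of 33 to 44 days, and no genetic modification is given for any group. At 24 months the CR males were all 673 days old and the AL males 719 to 743 days, so diet and age cannot be told apart in those males, whereas the females overlapped in age (CR 703 to 743 days, AL 704 to 733 days). Values are Z scores, in which each probe is placed on the distribution of its own array, with a mean of 0 and an SD of 1. A difference of 1 Z unit is therefore 1 SD of the probes of an array, it cannot be turned into a fold, and a shift of all probes together cannot be seen.

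Oxidative phosphorylation is the last stage of respiration, carried out in the inner mitochondrial membrane. Complex I takes electrons from NADH and complex II takes them from succinate, complex III passes them to cytochrome c, and complex IV hands them to oxygen. Complexes I, III and IV pump protons as they do so, and complex V, the ATP synthase, uses the return of the protons to make ATP. Neurons of the cerebellum depend on this supply, and nuclear genes encode every subunit treated here. In a piece of tissue, fewer cells of a type and less RNA per cell cannot be told apart.

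Before the results, 3 arrays stood apart. The CR males and CR females of 16 months and the CR females of 24 months each held 1 array (replicate 2 of its group) whose median correlation with the other arrays was low, at 0.695, 0.701 and 0.820, against 0.921 to 0.975 for the other 63. They were left out, which made 63 arrays, and a paragraph below gives results with all 66 arrays. The next lowest, at 0.921, was 1 of the 2 males of 17 to 21 days, and it was kept.

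Promoters are shown for 3 members that the results below turn on: Uqcr11 and Ndufa10, the members with the largest differences between juveniles, which also varied together between arrays, and Atp5g2, which carries the NRF1 element. Nuclear genes of the respiratory chain are known for promoters with sites of nuclear respiratory factor 1 (NRF1), of the ETS factor GABP (also called NRF2), of SP1 and, in part, of YY1 and the estrogen-related receptors. Each sequence holds the 250 bases before the start that the promoter table lists (RefSeq, build GRCm38.p6, all on the minus strand), written 5′ to 3′ along the gene. For Ndufa10 that start lies inside the gene's RefSeq span, so that 67 of the bases belong to the span. The distances below are counted from the listed start, and the capitals mark matches to the elements searched.
Uqcr11, chr10:80406822-80407071: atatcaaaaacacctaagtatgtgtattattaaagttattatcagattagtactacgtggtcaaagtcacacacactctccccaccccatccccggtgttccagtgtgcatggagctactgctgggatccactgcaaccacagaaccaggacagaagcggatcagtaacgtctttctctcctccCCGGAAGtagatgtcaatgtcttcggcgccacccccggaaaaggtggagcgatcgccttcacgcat
Ndufa10, chr1:92473759-92474008: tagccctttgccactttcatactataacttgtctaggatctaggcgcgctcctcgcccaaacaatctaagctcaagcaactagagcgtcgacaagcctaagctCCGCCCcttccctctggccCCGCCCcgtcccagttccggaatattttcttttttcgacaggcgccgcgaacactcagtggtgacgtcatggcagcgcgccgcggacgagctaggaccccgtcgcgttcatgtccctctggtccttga
Atp5g2, chr15:102671048-102671297: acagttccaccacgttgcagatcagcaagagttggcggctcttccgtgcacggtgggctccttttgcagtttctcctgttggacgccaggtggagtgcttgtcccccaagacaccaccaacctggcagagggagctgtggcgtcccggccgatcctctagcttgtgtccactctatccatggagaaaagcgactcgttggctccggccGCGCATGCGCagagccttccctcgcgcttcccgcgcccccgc

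The capitals in Uqcr11 are an ETS element that starts 66 bases before the start, those in Ndufa10 are 2 SP1 elements read on the opposite strand, and those in Atp5g2 are the NRF1 core on both strands, overlapping. Promoters were listed for 36 of the 44 members and for 27025 genes in all. On either strand, the ETS letters CCGGAAG were found before 8 of 36 members (22.2%) and 7.83% of all genes, and the NRF1 core GCGCATGC before 5 of 36 (13.9%) and 2.56% of all genes. The 5 with the NRF1 core were Atp5g2, Atp5k, Atp5l, Cox6a1 and Ndufa8, and Cox6a1 and Atp5l held both elements. The SP1 letters GGGCGG stood before 16 of 36 members (44.4%) and 35.4% of all genes, the YY1 letters AAGATGGC before 1 member, Atp5j (2.78%, all genes 1.83%), and the receptor letters TCAAGGTCA before 1 member, Atp5g3 (2.78%, all genes 0.422%). The TATA letters TATAAA stood before 5 members (13.9%), against 14.3% of all genes. A match of letters is a description of the sequence and not a bound site.

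The probes of these genes sat near the middle of the array's distribution. Transcripts of respiratory chain subunits are known to be abundant in brain. The median member had a mean Z score of -0.0720, against -0.0281 for all 7782 features (genes with their probes averaged, and every other probe alone), and 19 of 44 members (43.2%) lay above 0, against 48.7% of all features. By complex, the median of the mean Z scores was -0.162 in complex I, -0.677 in complex II, 0.0941 in complex III, -0.162 in complex IV and 0.164 in complex V.

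Within complex I, Ndufa12, an accessory subunit, had the highest level of any member (1.67 ± 0.19, SD over 63 arrays), followed by Ndufb10 (1.39 ± 0.18) and Ndufa10 (1.07 ± 0.25). Ndufc1, another accessory subunit, had the lowest of any member (-1.16 ± 0.20). The core subunits were also spread to both sides of 0. Ndufv2 stood at 0.78, Ndufs7 at 0.50, Ndufs1 at 0.13, Ndufv1, which binds NADH, at -0.39 and Ndufs3 at -0.45. In complex II, Sdha, the flavoprotein that oxidizes succinate, had a mean of -0.46 and Sdhc, a membrane anchor, one of -0.89. In complex III, Uqcr11, a small subunit, stood at 1.66 ± 0.21, the core protein Uqcrc2 at 0.09 and Uqcrb at -0.47. In complex IV, Cox4i1, a subunit that regulates the enzyme, was the highest (0.42 ± 0.12) and Cox5a the lowest (-1.11 ± 0.13). In complex V, Atp5md, a small membrane subunit, was the highest (1.37 ± 0.09), the catalytic beta subunit Atp5b stood at 0.73, the central stalk gamma subunit Atp5c1 at 0.04 and Atp5g2 at -0.97. Subunits of 1 complex thus differed by far more than their SD between arrays. Z scores of different probes also depend on each clone's length and labelling, so this order is one of probe signals and not of transcript numbers.

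**Figure D1:**
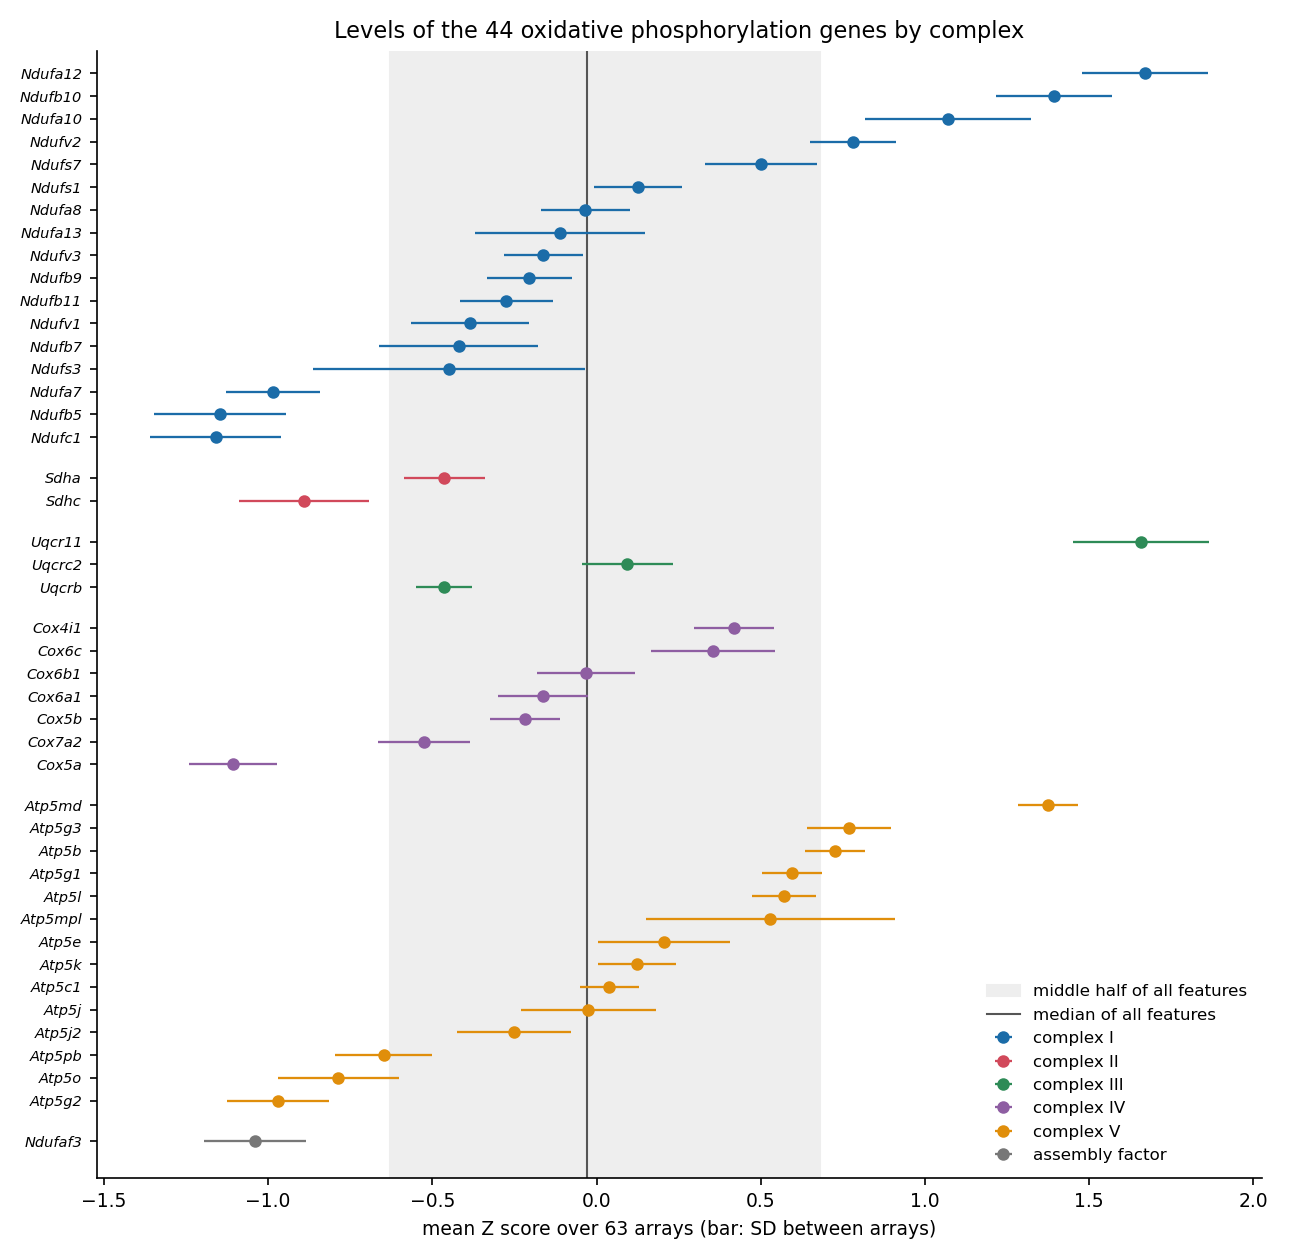
Mean Z score of each of the 44 genes over 63 arrays (points, with bars of 1 SD between arrays), grouped by complex, with the interquartile range of all features as a grey band and their median as a line. The members spread to both sides of the median of all features, with Ndufa12 at 1.67 the highest and Ndufc1 at -1.16 the lowest.

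For 8 members the filter held a pair of probes, which gave a check of the names. The 2 probes of Cox4i1 were alike, at 0.42 each, and those of Atp5b were close, at 0.63 and 0.82. Those of Atp5md differed by 1.73 Z units (0.51 and 2.24) and those of Atp5g1 by 1.22 (-0.02 and 1.21), although the SD of each probe between arrays was at most 0.20. Sdha had -0.62 and -0.30, and Uqcrb had -0.72 and -0.21. In 3 of the 8 pairs (Atp5g1, Atp5c1 at 0.28 and -0.20, and Uqcrc2 at -0.21 and 0.40) the probes lay on opposite sides of 0. The median gap was 0.497 over the 8 members, 0.736 over all 561 genes with more than 1 probe and 0.847 between probes that are merely neighbours in the array order, and the correlation of the paired probes over the 561 genes was 0.111. The data therefore do not bear out the pairing of probes and names, and each gene name below stands for the probe as annotated. The genes Atp5g1, Atp5g2 and Atp5g3 encode the same mature subunit c of the rotor ring, so that cross-hybridization among their clones was not tested either.

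The tissue could be checked only in part, since none of the listed markers of granule cells, oligodendrocytes, endothelium or choroid plexus had a single-symbol probe. Markers of 1 cell type lay far apart where there were several. Of the Purkinje cell genes, Car8 had a mean Z score of 0.841 and Calb1 one of -0.02, and of the Bergmann glia genes, Vim had 1.00 and Slc1a3 0.03. The microglial C1qb stood at 0.620 and C1qc at 0.589, but C1qa, whose protein joins theirs in 1 complex, at -1.50. The 5 meningeal genes ran between -0.55 (Dcn) and 2.15 (Slc6a13) and the 4 of blood between -1.21 (Alas2) and 0.341 (Hba-a2). Mylpf of skeletal muscle stood at 0.457 and Ppp1r1b, a gene of the forebrain, at -0.488.

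Age in AL mice was compared first, between 6, 16 and 24 months. None of the 44 genes passed the test in any of these comparisons (limma, Benjamini-Hochberg adjusted p under 0.05 over all 7782 features, for which "called" is written below), and 0% of all features were called. At an unadjusted p under 0.05, 1 member differed between 16 and 6 months (2.27%, all features 1.34%), 2 between 24 and 16 months (4.55%, all features 3.92%) and 1 between 24 and 6 months (2.27%, all features 2.49%). The member medians of the differences were 0.029 Z units for 16 against 6 months (all features 0.001), -0.0507 for 24 against 16 months (all features -0.00225) and -0.0188 for 24 against 6 months (all features -0.000375).

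More members than features in general lay on 1 side of 0 in both steps of adult life, and the side turned. At 16 against 6 months 32 of 44 members were higher (72.7%, all features 50.8%), and at 24 against 16 months 7 of 44 were higher (15.9%, all features 48.6%). Both comparisons use the same 16-month mice, and the members share their arrays, so the counts are descriptions. By mouse, the member median was -0.107 ± 0.094 at 6 months, -0.051 ± 0.105 at 16 months and -0.081 ± 0.074 at 24 months (SD, n = 10, 10 and 9), a range of means smaller than 1 SD between mice. In complex I, 15 of 17 genes were higher at 16 than at 6 months (median 0.056) and 3 of 17 were higher at 24 than at 16 months (median -0.0725). Complex V had 8 of 14 higher and then 2 of 14. A blood marker, Alas2, which makes heme in red cells, moved in the same directions (0.23 ± 0.08 at 16 against 6 months and -0.19 ± 0.08 at 24 against 16 months in AL mice, -0.22 ± 0.09 at 24 against 16 months in CR mice), and neither it nor the other 3 blood markers were called. Of these 3, Hba-a1 had AL medians of -0.0625, -0.0246 and -0.107 at 6, 16 and 24 months. Hba-a2 (0.357, 0.352 and 0.253) and Slc4a1 (-0.06, -0.095 and -0.11) did not rise at 16 months. In CR mice the median of each of the 3 was lower at 24 than at 16 months. The summed Z score of the 4 ran between -1.52 and -0.17 at 6 months, -1.44 and -0.17 at 16 months and -1.90 and -0.16 at 24 months in AL mice, and between -1.08 and -0.12 at 16 months and -1.84 and -0.81 at 24 months in CR mice. The part of the blood markers in the members' counts was not tested.

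The single genes were led by subunits of complex V. Atp5pb, the b subunit of the stalk that holds the synthase still, had a lowest, median and highest mouse of -0.73, -0.65 and -0.44 Z units at 6 months, of -0.84, -0.64 and -0.35 at 16 months and of -1.06, -0.73 and -0.56 at 24 months. The groups overlapped, and the difference was -0.16 ± 0.06 (SE) for 24 against 6 as for 24 against 16 months. Atp5g2, a source of subunit c, had -1.47, -1.09 and -0.84 at 24 months, against -1.15, -0.88 and -0.75 at 16 months (difference -0.17 ± 0.07), and again the groups overlapped. Its paralogs Atp5g1 (-0.08 ± 0.04) and Atp5g3 (-0.11 ± 0.06) came next at 24 against 6 months, and Atp5g1 (-0.07 ± 0.04) at 24 against 16 months. At 16 against 6 months the smallest p values belonged to Ndufb5 (0.18 ± 0.09), Atp5l (0.09 ± 0.05), subunit g of the synthase, and Ndufs1 (0.08 ± 0.06), a core subunit of complex I.

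**Figure D2:**
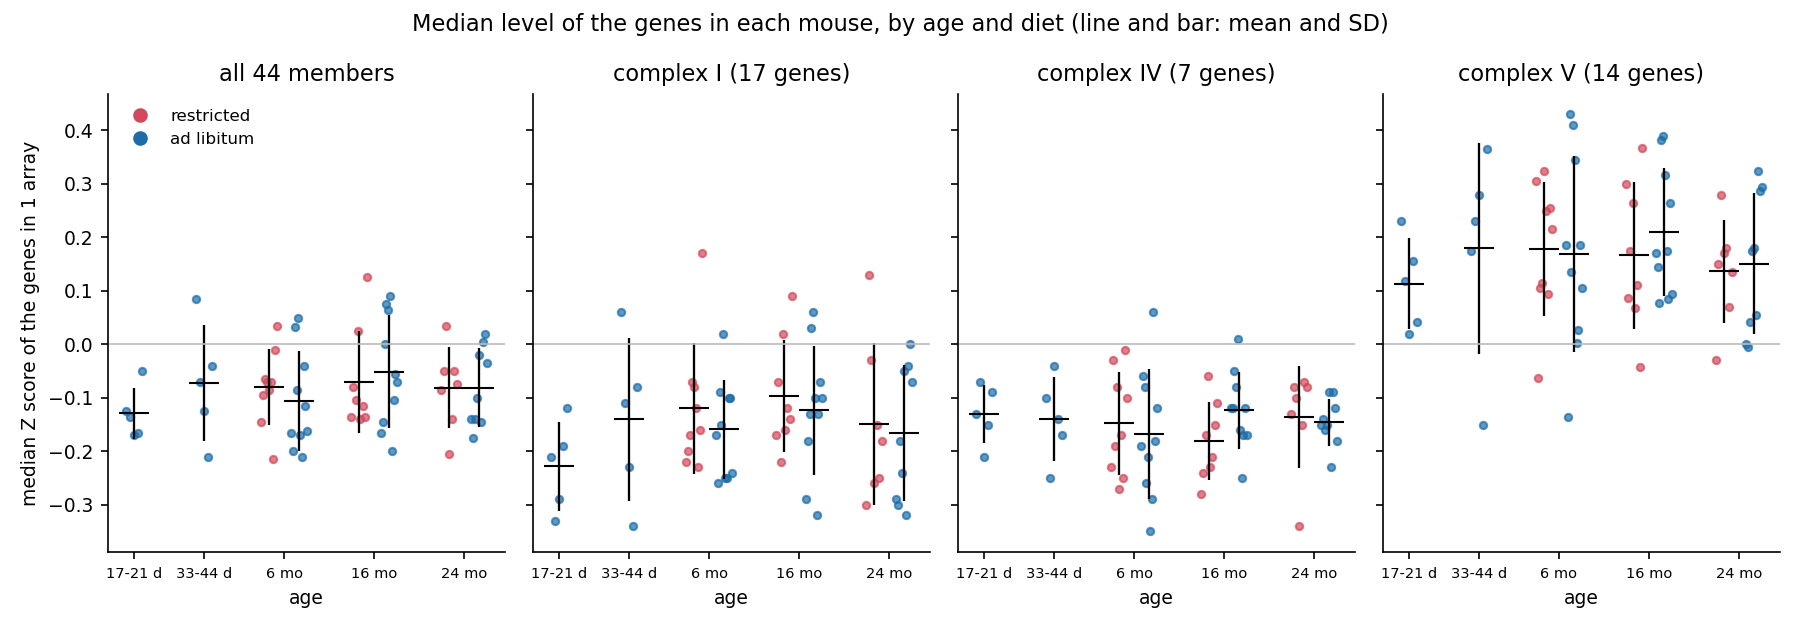
Median Z score of all members and of the genes of complexes I, IV and V in each mouse (points), by age, with CR left of AL in adults and the group mean and SD as line and bar. Every group overlapped every other, and the mean of the member medians ran between -0.129 and -0.051.

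The precision limits what these null results hold. For 24 against 6 months in AL mice, the median 95% interval of a member was its difference ± 0.132 Z units, the narrowest ± 0.0847 and the widest ± 0.370, so changes of a fraction of an SD of the array remain possible for every member. The largest value inside any member's interval was 0.411 Z units in that comparison.

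In CR mice the same 3 age comparisons gave the same count of 0 called members, with 0% of all features called. At an unadjusted p under 0.05, 1 member differed between 16 and 6 months (all features 2.13%), 3 between 24 and 16 months (6.82%, all features 2.51%) and 1 between 24 and 6 months (all features 1.12%). The member medians were 0.0166, -0.0363 and -0.00592 Z units, and at 24 against 16 months 13 of 44 members were higher (29.5%, all features 52%). Atp5o, the stalk subunit also known as OSCP, had -1.59, -0.89 and -0.73 at 24 months (lowest, median and highest), against -0.83, -0.75 and -0.56 at 16 months. The difference was -0.24 ± 0.09, and it was -0.16 without the CR female of 24 months at -1.59, a drop of over 1.5 times on which Atp5o also rests at 24 against 6 months (-0.21 ± 0.09, and -0.13 without that mouse). The assembly factor Ndufaf3 had -1.58, -1.07 and -0.93 at 24 months, against -1.08, -0.92 and -0.73 at 16 months (difference -0.22 ± 0.08). Ndufv3, a small complex I subunit, differed by -0.13 ± 0.06, and by -0.09 without 1 CR male of 16 months (replicate 5). Ndufc1 was the member with the smallest p at 16 against 6 months (-0.18 ± 0.08), followed by Ndufaf3 (0.13 ± 0.07) and Sdhc (0.15 ± 0.10), and Atp5g3 (-0.10 ± 0.07, and -0.06 without the same CR female of 24 months) and Atp5k (-0.09 ± 0.07), subunit e of the synthase, followed Atp5o at 24 against 6 months. In all of these the groups overlapped.

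Diet was compared within each age. At 6 months no member reached an unadjusted p under 0.05 (all features 0.655%), at 16 months 1 did (2.27%, all features 2.13%) and at 24 months 3 did (6.82%, all features 2.25%), and 0 members and 0% of all features were called at each age. The member medians of CR minus AL were 0.008, -0.0136 and 0.0158 Z units, against 0.003, -0.0005 and 0.00492 over all features. Complexes I, IV and V moved apart by little: the medians of their differences at 24 months were 0.0273, -0.0329 and -0.000792.

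With both sexes together, Ndufc1 at 16 months had the widest gap between diets of any member at any age. It stood at -1.69, -1.33 and -1.17 in CR mice, against -1.34, -1.03 and -0.79 in AL mice (lowest, median and highest), a difference of -0.29 ± 0.08 that stayed between -0.33 and -0.24 whichever of the sound arrays was left out but was -0.16 with all 66 arrays, and its smallest adjusted p with 1 mouse left out was 0.946. The groups overlapped. Next came Atp5b (0.09 ± 0.05) and Ndufb11 (-0.11 ± 0.07), for which the difference was -0.05 without the CR female that was lowest at -0.83. At 24 months Ndufa7, a complex I subunit, had -1.46, -1.13 and -0.83 in CR mice, against -1.11, -0.82 and -0.78 in AL mice (difference -0.19 ± 0.07, and -0.13 without the CR female replicate 5). Atp5pb had -0.88, -0.65 and -0.39 in CR mice, against -1.06, -0.73 and -0.56 in AL mice (difference 0.16 ± 0.07), and Atp5g1 had 0.55, 0.62 and 0.68 in CR mice, against 0.41, 0.55 and 0.65 in AL mice (difference 0.10 ± 0.05). At 6 months the smallest p values belonged to Ndufb9 (0.11 ± 0.06, and 0.05 without 1 CR female), Ndufb5 (0.09 ± 0.09) and Ndufa13 (-0.09 ± 0.12).

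In the females of 24 months, whose ages overlapped between diets, 3 members reached an unadjusted p under 0.05 (6.82%, all features 5.37%), and none was called. Ndufaf3 stood at -1.20, -1.07, -1.58 and -1.38 in the 4 CR females, against -1.07, -1.02, -0.84, -0.86 and -1.12 in the 5 AL females. Of the 4 CR values 3 lay below every AL value, and the difference was -0.33 ± 0.10 (limma, adjusted p = 0.739). Ndufb5 was -1.04, -1.22, -0.90 and -0.50 in CR females, against -1.09, -1.50, -1.25, -1.13 and -1.29 in AL females (difference 0.34 ± 0.13). Atp5o was -0.92, -0.86, -1.04 and -1.59 in CR females, against -0.78, -0.81, -0.75, -0.92 and -0.89 in AL females (difference -0.27 ± 0.12). The last of the CR values decides both: without that mouse the differences were 0.20 for Ndufb5 and -0.11 for Atp5o.

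Whether the change from 6 to 24 months differed between the diets was tested directly. No member was called (0% of all features), and 1 reached an unadjusted p under 0.05 (all features 0.9%). It was Atp5pb, whose change in CR mice exceeded that in AL mice by 0.20 ± 0.10, followed by Ndufa7 (-0.18 ± 0.10) and Cox7a2 (-0.17 ± 0.09), a small subunit of complex IV.

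With all 66 arrays in the fit, 0 members were again called in each of the 15 comparisons, but the counts at an unadjusted p under 0.05 moved both ways where the 3 arrays entered. They were larger at 16 against 6 months in CR mice (4, all features 8.74%), at 24 against 16 months in CR mice (9, all features 9.82%), for diet at 16 months (5, all features 8.64%) and for diet in females of 24 months (8, all features 24.9%). They were 0 for diet at 24 months (all features 1.77%) and for the diet difference in the change between 6 and 24 months (all features 0.681%), and 1 at 24 against 6 months in CR mice (all features 1.53%). The members named for diet were smaller in size with these arrays: Ndufc1 differed by -0.16 ± 0.10 at 16 months, and at 24 months Atp5pb differed by 0.10, Atp5g1 by 0.07 and Ndufa7 by -0.14, none with an unadjusted p under 0.05. Probes at the eighth place in the runs of 22 probe numbers averaged Z scores of -2.70 and -2.69 on the 2 arrays of 16 months. Sdha, Atp5g1, Atp5g3 and Atp5j2, subunit f of the synthase, have a probe there. Diet at 16 months then gave -0.72 for Atp5g3, -0.46 for Atp5j2 and -0.31 for Atp5g1, against -0.05 for Atp5g3, 0.02 for Atp5j2 and -0.05 for Atp5g1 on the 63 arrays.

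Adult females were compared with adult males over both diets. No member was called (0% of all features), and 2 reached an unadjusted p under 0.05 (4.55%, all features 1.29%), Atp5b (-0.06 ± 0.03) and Atp5j2 (-0.10 ± 0.05), both lower in females, with Uqcrb (-0.05 ± 0.03) next. Of the 44 members 13 were higher in females (29.5%, all features 50.3%), with a median difference of -0.0155 Z units and a median 95% interval of ± 0.0798.

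**Figure D3:**
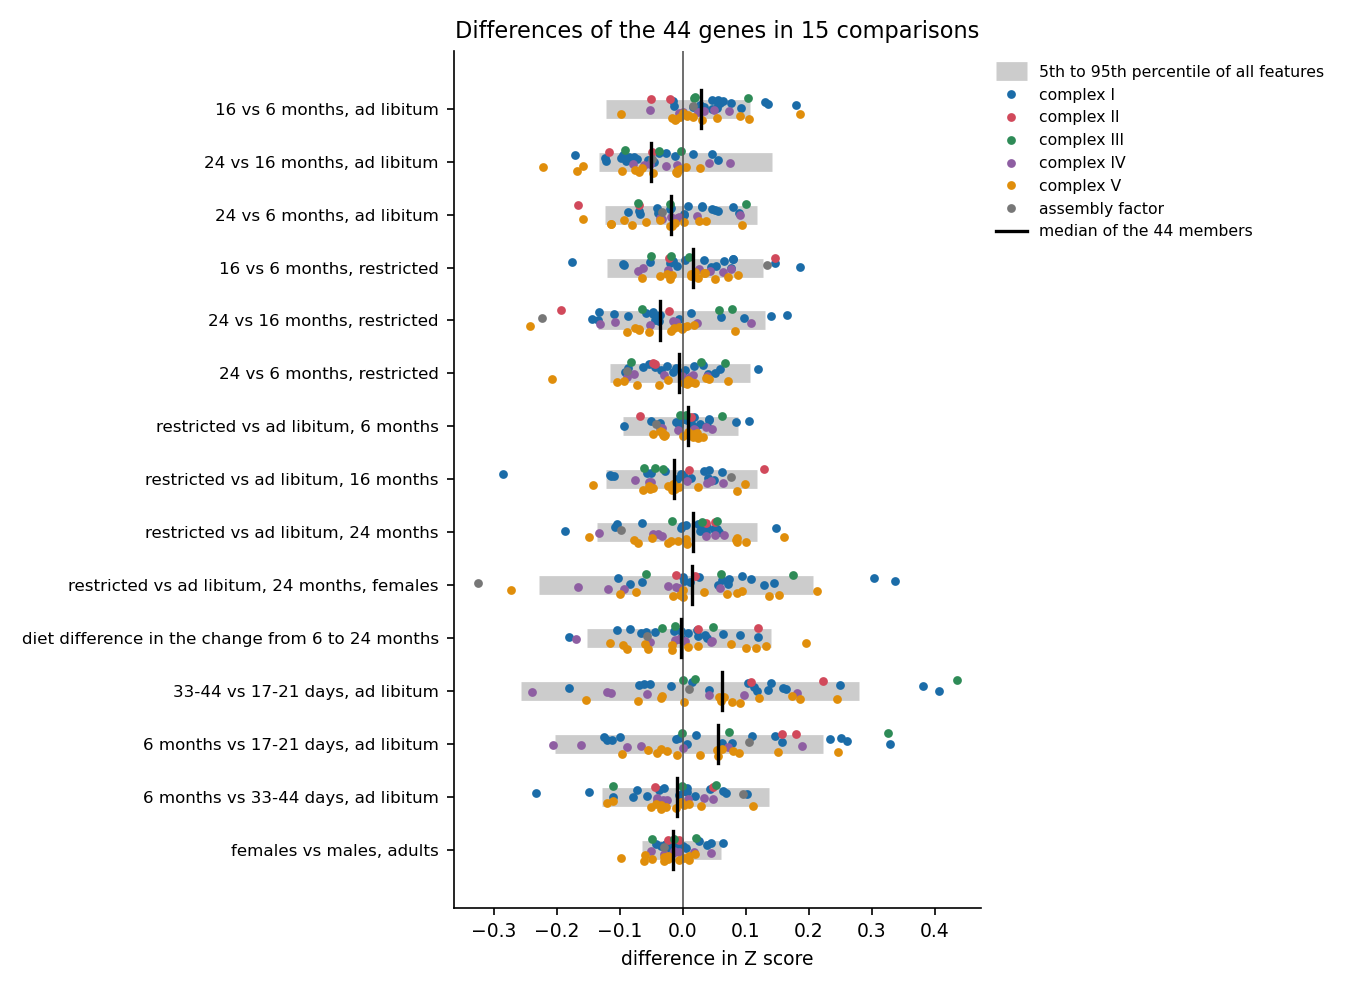
Difference in Z score of each member (points, coloured by complex) in the 15 comparisons, with the median of the 44 members as a black bar and the 5th to 95th percentile of all features in grey. The members lay mostly within the grey bars, and the points farthest out were Uqcr11 at 0.44 and Ndufa10 at 0.41 between the juvenile ages.

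The widest differences lay between the youngest mice and the older ones. Against 17 to 21 days, 31 of 44 members were higher at 33 to 44 days (70.5%, all features 48.1%) and 27 were higher at 6 months (61.4%, all features 48.5%), with medians of 0.0629 and 0.0554 Z units. No member was called, while 24 features (0.308%) were called in the first comparison and 32 (0.411%) in the second. At an unadjusted p under 0.05, 4 members differed at 33 to 44 days (9.09%, all features 13.4%), all of them higher (all features 6.82% higher), and 9 differed at 6 months (20.5%, all features 10.7%), 8 of them higher (18.2%, all features 5.69%). The study's pairwise criteria, explained with the processing, named 2 members at 33 to 44 days (all features 4.11%) and 3 at 6 months (all features 4.07%).

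Uqcr11 led both. Its 5 values at 33 to 44 days were 1.73, 1.42, 1.69, 1.98 and 1.76, against 1.63, 1.45, 0.58, 1.58 and 1.44 at 17 to 21 days. A single male of 17 to 21 days, at 0.58, was far below every other mouse of both groups, and the groups overlapped. The difference was 0.44 ± 0.12 Z units (limma, adjusted p = 0.0813), and at 6 months against 17 to 21 days it was 0.33 ± 0.10 (limma, adjusted p = 0.167). Ndufa10 had 1.17, 0.53, 1.30, 1.38 and 1.20 at 33 to 44 days, against 1.15, 0.77, 0.21, 0.88 and 0.85 at 17 to 21 days, and the 0.21 came from the same male. Ndufb10 had 1.25, 1.47, 1.18, 1.41 and 1.48 at 33 to 44 days, against 1.44, 1.21, 0.49, 1.55 and 1.49 at 17 to 21 days, with that male again the lowest. Ndufb7, a complex I subunit, had -0.36, -0.57, -0.15, -0.08 and -0.43 at 33 to 44 days, against -0.51, -0.66, -0.95, -0.78 and -0.53 at 17 to 21 days (difference 0.38 ± 0.15, and 0.28 without that male). Ndufc1 had -1.03, -1.19, -1.21, -0.93 and -1.16 at 33 to 44 days, against -1.03, -1.27, -1.41, -1.31 and -1.65 at 17 to 21 days (difference 0.25 ± 0.11).

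The members that reached an unadjusted p under 0.05 at 6 months against 17 to 21 days were Uqcr11, Ndufb10 (0.26 ± 0.10), Ndufc1 (0.25 ± 0.10), Ndufa10 (0.33 ± 0.14), Cox6b1 (0.19 ± 0.08), Atp5j (0.25 ± 0.12), Sdha (0.16 ± 0.07) and Ndufa8 (0.16 ± 0.08), with higher values at 6 months, and Cox7a2 (-0.16 ± 0.07), with lower ones. Atp5j had a lowest, median and highest mouse of -0.33, -0.10 and 0.97 at 6 months, against -0.59, -0.16 and -0.01 at 17 to 21 days. Its difference was 0.11 without the male at -0.59, the same male that was lowest for Uqcr11.

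The male of 17 to 21 days at 0.58 for Uqcr11 was the array with the lowest correlation of those kept. Without it, 2 members reached an unadjusted p under 0.05 in each comparison (4.55%, all features 6% at 33 to 44 days and 4.14% at 6 months), the medians were 0.0175 and 0.00758, Uqcr11 differed by 0.22 and 0.11, Ndufa10 by 0.25 and 0.17, and Ndufb10 by -0.09 and 0.01, whereas Ndufc1 differed by 0.31 in both. Cox6b1 also differed by more without that male (0.24 and 0.25, against 0.18 and 0.19 with it). Without the other male of that age instead, the low array was the only male of 17 to 21 days, and sexes were weighted equally. Uqcr11 then differed by 0.65 and 0.54, Ndufa10 by 0.57 at 33 to 44 days and Ndufb10 by 0.51 at 6 months. Without the male of 33 to 44 days at 0.53 for Ndufa10, 1 member was called in the first comparison (2.27%, all features 0.861%). A marker of the meninges was low in the male of 17 to 21 days that was low for Uqcr11: Slc6a13, 1 of 5 listed markers on the filter and the only one called at 6 months against 17 to 21 days (0.46 ± 0.10, limma, adjusted p = 0.0301), was at 0.71 in it and at 1.92 or more in the other 4. Col1a2 (-0.465, others -0.045 or more) and Col1a1 (0.26, others 0.31 or more) were also lowest in this male. The lowest values of Dcn (-0.83) and Igf2 (0.27) in its group were the same without it. Col1a1 had a higher median at 17 to 21 days (0.38) than at 6 months (0.275). The summed Z score of the 5 markers ran between 1.93 and 3.28 at 6 months, against 0.38 and 2.31 at 17 to 21 days, or 1.88 and 2.31 without the male. Of the 2 Purkinje cell markers, Car8 was higher (0.31 ± 0.12 at 33 to 44 days, 0.29 ± 0.10 at 6 months) and Calb1 lower (-0.17 ± 0.08 and -0.16 ± 0.07). Of the 2 glial markers Vim was higher at 6 months (0.25 ± 0.09), and none of these was called. The lowest, median and highest values of Vim were -0.03, 0.98 and 1.18 at 17 to 21 days, against 0.89, 1.005 and 1.18 at 6 months, so the medians were close. Those of Car8 were -0.11, 0.67 and 0.97, against 0.58, 0.785 and 1.18. The summed Z score of the 2 Purkinje cell markers ran between 0.72 and 1.04 at 33 to 44 days and between 0.56 and 1.20 at 6 months, against 0.21 and 1.17 at 17 to 21 days, and the lowest sum of the 2 glial markers was 0.94 at 33 to 44 days and 0.92 at 6 months, against 0.00 at 17 to 21 days. The part of these markers in the members' differences was not tested.

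**Figure D4:**
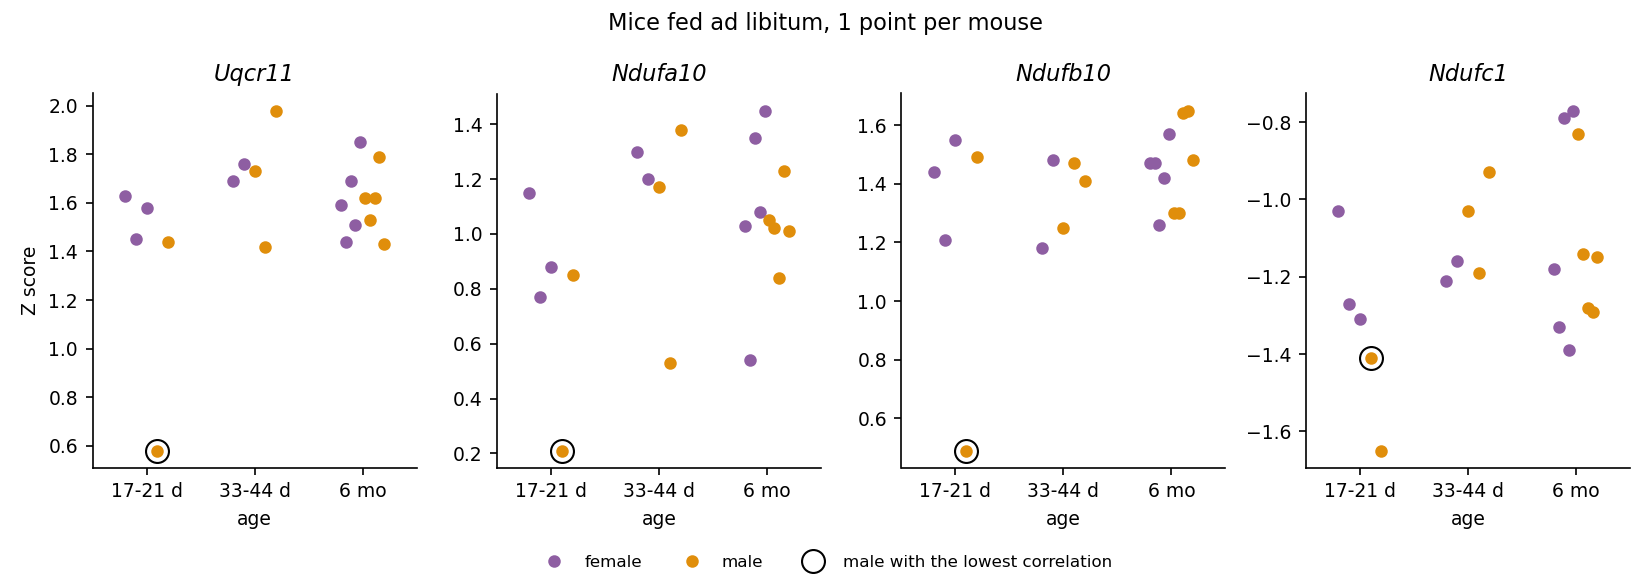
Z scores of Uqcr11, Ndufa10, Ndufb10 and Ndufc1 in AL mice of 3 ages, with 1 point per mouse, coloured by sex, and a ring around the male of 17 to 21 days with the lowest correlation. That male was the lowest point for Uqcr11 (0.58), Ndufa10 (0.21) and Ndufb10 (0.49) but not for Ndufc1.

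From 33 to 44 days on, the levels lay close together. At 6 months against 33 to 44 days no member was called (0% of all features), 1 reached an unadjusted p under 0.05 (2.27%, all features 1.72%), and the median difference was -0.00875. That member was Ndufb5 (-0.23 ± 0.11), with Atp5g3 (0.11 ± 0.07) and Atp5pb (-0.11 ± 0.08) next. By complex, the mean over mice of the array median at 17 to 21 days, 33 to 44 days and 6, 16 and 24 months in AL mice was -0.228, -0.140, -0.159, -0.123 and -0.166 for complex I and 0.113, 0.180, 0.169, 0.210 and 0.151 for complex V. It was -0.130, -0.140, -0.168, -0.123 and -0.146 for complex IV and 0.055, 0.092, 0.122, 0.142 and 0.054 for complex III. For the 2 genes of complex II it was -0.787, -0.640, -0.634, -0.669 and -0.750, and the median of their differences was 0.168 at 6 months against 17 to 21 days and -0.117 at 24 against 6 months. The SD between mice was 0.08 to 0.15 in the AL groups for complex I and 0.09 to 0.20 for complex V, and the means of neighbouring ages differed by less than the larger SD of the pair. In CR mice at 6, 16 and 24 months the means were -0.120, -0.0963 and -0.149 for complex I and 0.178, 0.166 and 0.136 for complex V.

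Some members varied widely between runs of arrays. The labels number the arrays but name no sets. The numbers were divided here into 5 runs, called array sets, along the repeating order of the groups. Each set held 1 or 2 mice of most combinations of age and diet. The study's methods state that samples were handled in balanced batches, but do not tie the batches to these numbers. The mean of Atp5mpl, a small membrane subunit of the synthase, was 0.34 and 0.10 in the first and second sets and 0.68, 0.72 and 0.72 in the others. Ndufs3, a core subunit of complex I, averaged -0.76 and -0.81 in the first and second sets and between -0.29 and -0.22 in the others. The ranges between set means were 0.62 (Atp5mpl), 0.59 (Ndufs3), 0.55 (Ndufa13) and 0.49 (Ndufa10) Z units, wider than any member's difference between groups on the 63 arrays, and the median range was 0.174 over the members and 0.215 over all features. With the set as a block in the fit no member was called. Uqcr11 averaged 1.85 in the fifth set and between 1.53 and 1.68 in the others. Ndufa10 averaged 1.32 in the fifth set and between 0.83 and 1.11 in the others. The fifth set held mice of 33 to 44 days but none of 17 to 21 days, and the third set held the reverse. Juvenile age and array set are therefore partly confounded.

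**Figure D5:**
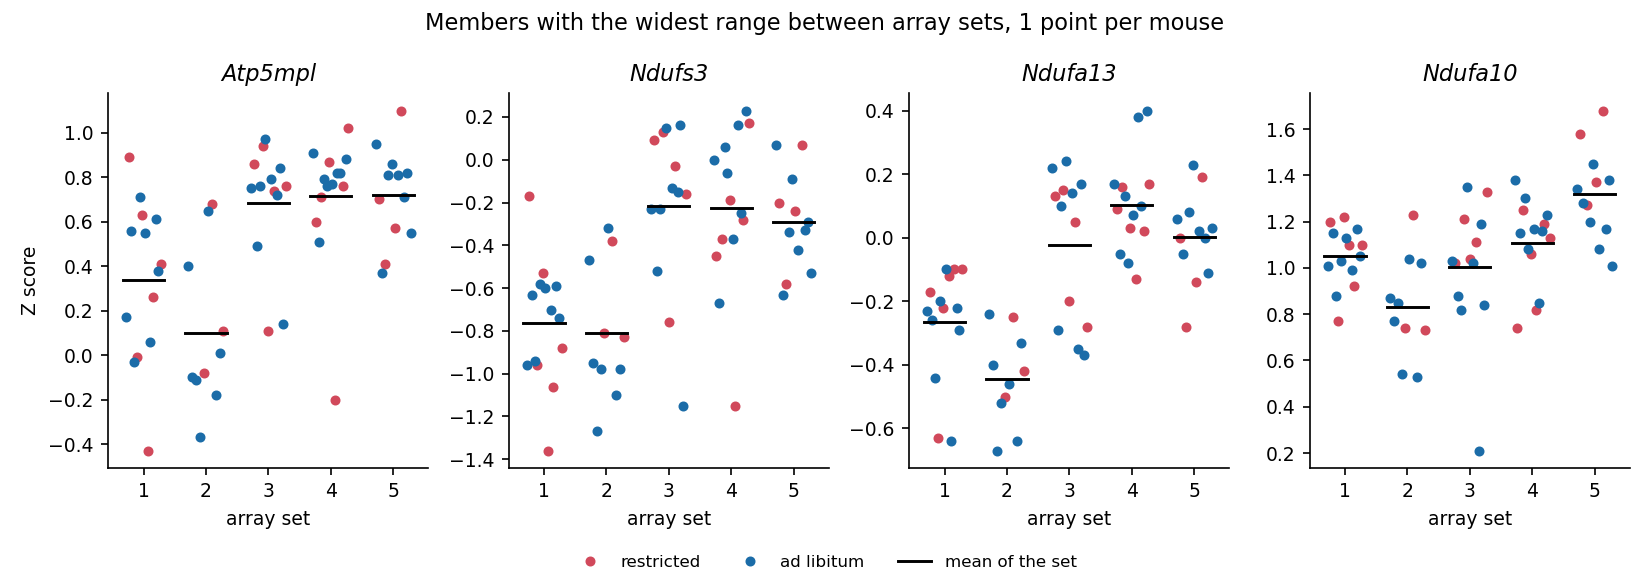
Z scores of Atp5mpl, Ndufs3, Ndufa13 and Ndufa10, the members with the widest range between array sets, with 1 point per mouse coloured by diet and the mean of each set as a line. Both diets moved together from set to set, and the means of Atp5mpl ran between 0.10 and 0.72.

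The members were only loosely tied to each other. Over the 63 arrays the median correlation of 2 members was 0.126, against -0.00857 for any 2 features, and 6.66% of the 946 member pairs had a correlation above 0.5, against 7.93% of all pairs. The pair most alike was Atp5mpl and Ndufs3 (r = 0.911, and 0.880 within array sets), both on probes at the seventeenth place of the runs of 22 probe numbers, and Ndufa10 and Uqcr11 followed (r = 0.825, 0.773 within sets). All arrays enter every pair, so these values share arrays and their positions. The 7 member probes at the seventeenth place had a median SD of 0.208 between arrays, with 0.413 in Ndufs3, while those at the seventh place had one of 0.123.

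Other genes of mitochondrial energy metabolism gave no calls either. Of 124 listed genes in 5 groups, 40 had a single-symbol probe, and none was called in any of the 15 comparisons. The 12 genes of the tricarboxylic acid cycle and pyruvate entry were led by Pdhb, of pyruvate dehydrogenase, with a mean Z score of 0.736, the 9 assembly factors by Uqcc2 with 2.09, and the 9 regulators of mitochondrial biogenesis by Prkaa1, a catalytic subunit of AMP-activated kinase, with 1.12. The 5 carriers of nucleotides, phosphate and energy were led by Vdac3 (0.178) and the 5 genes of mitochondrial redox defence by Sod2 (0.117), the superoxide dismutase of the matrix. At 33 to 44 against 17 to 21 days, 1 of 12 cycle genes, 2 of 9 assembly factors and 1 of 5 carriers were higher at an unadjusted p under 0.05, and 1 of 9 biogenesis genes was lower, against 13.4% of all features.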

How the data were processed

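Cerebellar RNA of 66 mice was hybridized as radiolabelled cDNA to 1 nylon filter per mouse. The deposited values are Z scores: the authors quantified spots from phosphor images and centred and scaled each array over its probes. A log step and a background step are named in no source read here. Precision is limited by the number of mice.

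Gene symbols came from the platform annotation (4875 probes with 1 symbol, 224 with several, 3349 with none). Probes of a gene were averaged, and all other probes entered alone. Arrays with a median correlation under 0.9 were left out. A linear model with 1 mean for each of 16 groups of sex, age and diet was fitted in R 4.3.3 by limma (version 3.58.1, moderated by eBayes; 47 residual degrees of freedom), sexes weighted equally, with two-sided p values adjusted by Benjamini-Hochberg over all features. The fit was tested on simulated data. The study's pairwise criteria, without its later two-way ANOVA, were a Z-ratio (difference divided by the SD of all differences) of at least 1.5 in size, a mean Z score above 0 and an unadjusted p under 0.05, here from limma.

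Each array was another mouse, so the spread holds animals and hybridization. The text names, for each comparison, the 3 members with the smallest p, and the highest and lowest of each complex, those with a pair of probes and those at the eighth position, and the top gene of each other list. Values for further genes are given beside these. Members, lists and the 3 arrays left out were chosen with earlier results of these data known. Promoters are RefSeq sequences of GRCm38.p6, and motifs were searched with Python 3.11.15 in the 250 bases before each start. Alternatives were all 66 arrays, a filter on mean Z score, single probes, array set as block, array weights, quantile normalization, a position correction, groups fitted alone, each mouse left out and the study's criteria.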

Additional observations from a re-analysis of the deposited data

Results flagged for a closer look

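Within 200 groups of 5 to 10 mice (25 genes with the smallest p values in 8 groups of age and diet), 12 held a mouse that stood apart from its group by Dixon's test. Chance alone flags about 5% of groups, and the share flagged here is close to that. The male of 17 to 21 days with the lowest correlation was at 0.58 for Uqcr11 (others 1.44 to 1.63), while the other male of that age was at 0.38 for Ndufa13 (others -0.40 to -0.26). A male of 33 to 44 days was at 0.53 for Ndufa10 (others 1.17 to 1.38).

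The CR female of 16 months that was replicate 5 was the lowest of its group for Ndufb11 (-0.83, others -0.45 to -0.17) and Ndufc1 (-1.69, others -1.40 to -1.17). The CR female of 24 months that was replicate 5 was the lowest for Atp5o (-1.59, others -1.04 to -0.73) and Ndufb11 (-0.66, others -0.32 to -0.09). The replicate 5 mice of other groups included a CR female of 6 months at -0.79 for Atp5j2 (others -0.40 to -0.07), a CR male of 16 months at 0.10 for Atp5j2 (others -0.37 to -0.17), an AL female of 16 months at -1.37 for Atp5o (others -0.99 to -0.56) and an AL female of 6 months at -0.31 for Sdhc (others -1.18 to -0.75). An AL female of 16 months (replicate 4) was at 0.68 for Ndufb7 (others -0.61 to -0.24). Of the 12 values, 8 came from mice of the fifth array set, which holds 12 of the 63 arrays. The replicate 5 mice named here had median correlations with the other arrays between 0.922 and 0.953, against a median of 0.968 over all arrays. What sets these mice apart was not tested.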

How the results depend on the processing

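No paired analysis was possible because the labels give no replicate numbers. The numbers used here follow the order of the samples and equal the array set in 57 of 66 mice, and that set was used as a block. The count of called members stayed at 0 in 13 of the 15 comparisons under every alternative tried. At 33-44 against 17-21 days it was 1 with the filter on mean Z score and 1 with the position correction, for which no share of all features is given here. Under the study's criteria it was 2 (Ndufa10 and Uqcr11, 4.55%, all features 4.11%), and it also moved with 1 mouse left out. At 6 months against 17-21 days it was 3 under the study's criteria (Ndufa10, Ndufb10 and Uqcr11) and 0 to 4 with each mouse left out, the 4 being Atp5j2, Ndufa10, Ndufb10 and Uqcr11 in both. In both comparisons the 4 came from the fit without a male of 17-21 days (replicate 2), which left 1 male of that age. Features in general were also called far more often in that fit, at a share close to that of the members. The 4 are therefore not particular to the members. The cause of these moves was not tested. The member medians were small beside the SD between mice (0.0883), so staying within it says little. They had the other sign in 9 of 120 alternatives and 28 of 296 fits without 1 mouse, for example -0.0152 for 16 against 6 months in CR mice without a male of 16 months (main value 0.0166). The count of members at an unadjusted p under 0.05 moved by over 1.5 times in 54 of the 120 alternatives and 100 of the 296 fits without 1 mouse. Of the differences given for single genes none changed direction with a call, 2 gained a call under the alternatives and 5 with 1 mouse left out. At 33-44 against 17-21 days the fit without a male of 33-44 days (replicate 2) called 1 member (all features 0.861%).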
